A study of Mus musculus with 2 samples.

Results

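The ATP-binding cassette (ABC) exporters of the hepatocyte were examined in mouse liver, in the canalicular membrane, which faces the bile, and in the basolateral membrane, which faces the blood. The members were 10 genes fixed by name, with earlier results of these data known. Every probe set that the platform annotation gives to 1 of these symbols alone was taken. This gave 11 probe sets, 1 for each of 9 genes and 2 for Abcb1a, out of 45101 on the array, and the 10 genes stand among 18193 with a probe set of their own.

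Liver RNA came from male C57Bl/6J mice aged 9 weeks at the start, all of which had eaten a diet poor in n-3 polyunsaturated fatty acids (n-3 PUFA) in an experiment of 112 days. For the last 10 days the DEF/FOS mice stayed on this sunflower oil diet, with fructooligosaccharides (FOS), a fibre that gut bacteria ferment, in their water at 0.25 g per day. The DEF/CT mice were moved to the soybean oil control diet for these 10 days. The n-6 to n-3 ratio of the last diet was 127.2 for DEF/FOS and 6.9 for DEF/CT. The treatment protocol gives 8 mice for each group, and each group's RNA was combined in equal amounts into 1 pool for 1 Affymetrix array. The extract protocol gives 4 to 8 mice per pool, and the number in each is not stated. The pools differ in the fibre and in the oil, which cannot be told apart, and with 1 array per group no difference has a replicate check or a test. Mice kept on either diet throughout are not analysed here.

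Hepatocytes make bile by pumping solutes across the canalicular membrane with ATP-driven exporters. Bile salts, phosphatidylcholine and cholesterol leave through pumps of their own, and conjugated drugs and pigments through others. Of the basolateral exporters, those encoded by Abcc3 and Abcc4 send bile salts and conjugates back into the blood. These are known to be induced when bile flow is blocked.

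Most of the canalicular exporters had nearly the same signal in both pools. The share of all genes with as small a difference is not given, so this is not called particular to them. The bile salt pump gene Abcb11, the sterol exporter genes Abcg5 and Abcg8, and Abcc2 and Abcg2, which export conjugates and drugs, all differed by less than 0.1 on the log2 scale. The phospholipid exporter gene Abcb4 was 1.34-fold higher in DEF/FOS liver, and the drug exporter gene Abcb1a 2.16-fold higher at low signal. Of the basolateral genes, Abcc3 was 1.60-fold and Abcc4 1.30-fold higher in DEF/FOS liver and Abcc6 1.24-fold lower. Signals are MAS5 intensities on a linear scale. A fold is taken from the log2 difference, DEF/FOS minus DEF/CT, after the median difference of all probe sets above a signal floor of 19.4 was subtracted, so it is not exactly the ratio of both signals. A gene counts as above the floor by its mean log2 signal over both pools, and counts at 1.5-fold use the plain difference even where 1 pool alone lies below the floor. The median of the members was 0.03, and that of all 11163 genes above the floor was -0.00043.

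At 1.5-fold, 2 of the 10 members, Abcb1a and Abcc3, were higher in DEF/FOS liver, a share of 20%, where 6.75% of all genes above the floor were that much higher. None of the members was 1.5-fold lower, where 7.82% of all genes were. At 2-fold the 1 member was Abcb1a, where 1.74% of all genes were that much higher and 2.19% lower. With 10 genes and no replicate these shares describe 2 arrays and are not a result about the family.

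**Figure D1:**
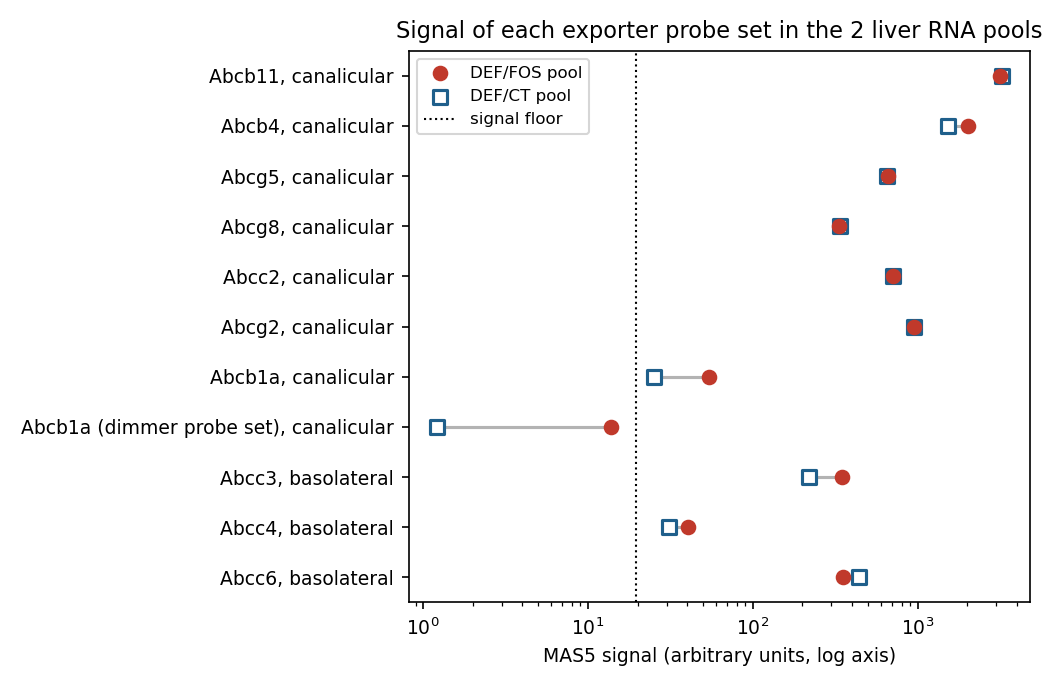
MAS5 signal on a log axis of each of the 11 exporter probe sets in DEF/FOS liver (filled circles) and DEF/CT liver (open squares), with the signal floor of 19.4 as a dotted line; each point is 1 array. Circle and square coincide for Abcb11, Abcg5, Abcg8, Abcc2 and Abcg2, and are clearly apart for Abcb1a and Abcc3.

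Both arrays were scaled by the authors to the same level, with trimmed means of 100 each, and their log2 signals had a Pearson's r of 0.967 across probe sets above the floor, which are not independent replicates. Hepatocyte markers were present in both pools, with all 10 named genes above the floor, a summed signal of 72915 in DEF/FOS liver and 75402 in DEF/CT liver, and no gene 1.5-fold apart. Skeletal muscle markers stood apart between the pools. All 12 were at least 1.5-fold lower in DEF/FOS liver, with summed signals of 164 in DEF/FOS and 2839 in DEF/CT. Neutrophil markers summed to 376 and 186 in DEF/FOS and DEF/CT liver, with 2 of 5 genes above the floor past 1.5-fold. These were S100a8 and S100a9, and the other 7 genes summed to 120 in DEF/FOS and 117 in DEF/CT. Of the 7, 4 lay below the floor by their mean, and these sums hold opposite differences. Cxcr2 had 29.6 in DEF/FOS and 3.88 in DEF/CT, while Mpo had 2.83 and 21.8, and Ltf 2.84 and 11.6. Kupffer cell markers summed to 4549 and 3902, with 1 of 11 genes past 1.5-fold. Stellate cell and fibroblast markers summed to 3526 and 3870, with none of 9 past 1.5-fold. The part of these cells in the values below was not tested. In pooled tissue, fewer cells of a type and less RNA per cell cannot be told apart.

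In place of a replicate error, the SD over the probe sets that share a gene served as a technical spread of the log2 difference. At signals above 235 it was 0.22, where 8 of the members lie, and it was 0.57 at signals from 19.4 to 37.4, where Abcb1a and Abcc4 lie. This spread leaves out the variation between mice and between arrays. Of the 10 members, 6 differed by less than 1 such SD between the pools, and Abcc3, Abcb1a, Abcb4 and Abcc6 by more. No share of all genes within 1 SD is given beside this count, so it is not a result about the exporters.

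Abcb11 encodes the bile salt export pump, which sets the rate of bile salt secretion. Its signal was 3186 in DEF/FOS liver and 3232 in DEF/CT liver. The log2 difference was -0.01, and its sign depended on the setting. The gene is a known target of FXR, the bile acid receptor, through an inverted repeat close to the start. The 250 bases before the annotated start of mouse Abcb11 are from RefSeq (GRCm38.p6, chr2:69342617-69342866, minus strand). They are shown because they hold a looser form of such a repeat, in capitals.
Abcb11: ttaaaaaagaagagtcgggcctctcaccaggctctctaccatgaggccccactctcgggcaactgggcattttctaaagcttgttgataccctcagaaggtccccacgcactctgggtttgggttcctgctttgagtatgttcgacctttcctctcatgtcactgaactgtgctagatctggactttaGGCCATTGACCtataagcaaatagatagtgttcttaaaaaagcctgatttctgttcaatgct
The match ends 52 bases before the start. The strict repeat, AGGTCA and its reverse complement facing each other 1 base apart, was found in none of the 12 promoter windows of the members, each running from 250 bases before a start to 50 after it, and in 0.00913% of all 32851 windows. The capitals mark a looser pattern, GGNCA followed after 1 base by TGACC, written after the Abcb11 sequence had been read, which 1 member window and 0.237% of all windows hold on either strand. Every strict match also holds the looser pattern. A match is a description of letters and no evidence of binding.

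The gene that encodes FXR, Nr1h4, had signals of 560 and 631 in DEF/FOS and DEF/CT liver, a log2 difference of -0.16. Of 8 listed FXR-responsive genes of liver other than members, 6 were above the floor. None was 1.5-fold apart, 1 had a positive difference, where 49.9% of all genes above the floor did, and the median was -0.09. Among them Nr0b2, the repressor SHP, had signals of 523 in DEF/FOS and 633 in DEF/CT.

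Abcb4 encodes the floppase that brings phosphatidylcholine to the outer leaflet of the canalicular membrane, where bile salts take it up. Its signal was 2032 in DEF/FOS liver and 1533 in DEF/CT liver, a log2 difference of 0.42 or 1.88 times the probe set SD. The value ran from 0.40 to 0.48 over the 9 settings tried. Set against Abcb11 within each array, so that the scaling of the arrays cancels, Abcb4 was 1.34-fold higher in DEF/FOS liver relative to DEF/CT, 1.35 times the SD expected for a pair. The 4 pairs compared in this way were chosen after their values had been seen. Of the partners of bile secretion that are not ABC genes, the phosphatidylserine flippase gene Atp8b1 had signals of 223 in DEF/FOS and 271 in DEF/CT, and its subunit gene Tmem30a 1680 and 1821. Both genes are listed with water channels, the copper pump Atp7b and other carriers. Of these 10 genes 7 were above the floor, all 7 had negative differences, none reached 1.5-fold, and the median was -0.26. Among all genes above the floor, 49.9% had positive differences.

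Abcg5 and Abcg8 encode the subunits of 1 pump for cholesterol and plant sterols. Abcg5 had signals of 662 in DEF/FOS liver and 651 in DEF/CT liver. Abcg8 had 333 in DEF/FOS and 337 in DEF/CT. The log2 differences were 0.04 and 0.00038, and the difference between them was 0.04, or 0.117 times the SD for a pair. The subunit genes thus stood at the same ratio to each other in both arrays, within the spread of probe sets. The genes are neighbours that run away from each other, and 109 bases lie between their closest annotated starts (RefSeq, GRCm38.p6, chr17:84683012-84683120, printed along the Abcg8 strand). A second start of Abcg8 is also annotated. The stretch is shown because both genes share it, and the capitals mark 2 matches to the GATA motif AGATAA on the opposite strand. GATA factors are known regulators of this gene pair in human cells.
Abcg5 and Abcg8: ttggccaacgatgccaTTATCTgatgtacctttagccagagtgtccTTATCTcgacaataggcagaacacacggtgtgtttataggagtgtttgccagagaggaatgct
The windows of Abcg5 and Abcg8 overlap here, and they were the 2 of 12 member windows with this motif, which 11.2% of all windows hold on either strand.

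**Figure D2:**
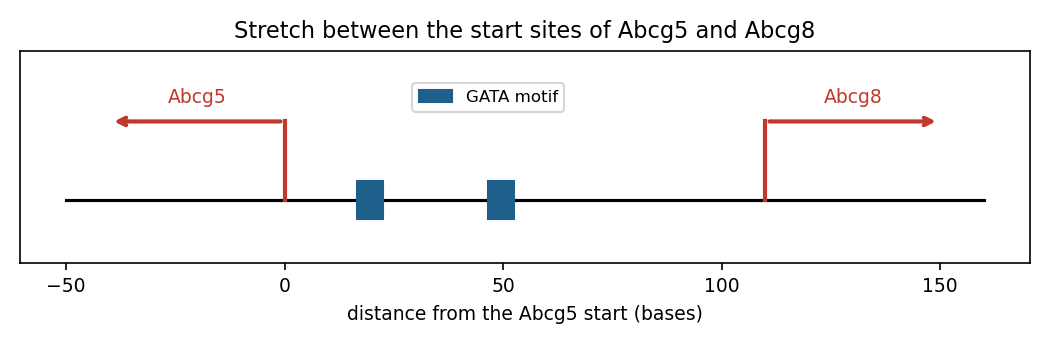
Map of the 109 bases between the annotated starts of Abcg5 and Abcg8, with distance in bases from the Abcg5 start on the axis. Arrows give the direction of each gene, and boxes mark the 2 GATA motif matches, at bases 17 to 22 and 47 to 52.

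The oxysterol receptor LXR is the known activator of Abcg5 and Abcg8. Its liver form, Nr1h3, had signals of 244 and 321 in DEF/FOS and DEF/CT liver. All 10 listed LXR-responsive genes were above the floor, 1 was 1.5-fold higher, none was 1.5-fold lower, and the median was 0.03. The higher gene was Pltp, a phospholipid transfer protein, 1.71-fold higher at 1380 in DEF/FOS against 814 in DEF/CT. Cyp7a1 fell just short of 1.5-fold higher, at 449 in DEF/FOS against 303 in DEF/CT, a log2 difference of 0.58. It is named outside the naming rule, after its values were seen. Abca1 and Abcg1, the cholesterol exporters of this list, had differences of 0.07 and -0.32.

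Abcc2 encodes MRP2, which exports bilirubin and other conjugates into bile. Its only probe set, of a type that may match several transcripts, gave 706 in DEF/FOS liver and 711 in DEF/CT liver. Abcg2, the breast cancer resistance protein, which exports sulfates, urate and many drugs, had 957 and 953 in DEF/FOS and DEF/CT liver. Their log2 differences were 0.0043 and 0.02, or 0.0192 and 0.0935 times the probe set SD. For both genes, and for Abcb11, Abcg5 and Abcg8, the sign of the difference changed between settings.

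Abcb1a encodes 1 of the mouse P-glycoproteins, exporters of hydrophobic drugs that are also found in vessel walls and other tissues. Its brighter probe set had a signal of 54.1 in DEF/FOS liver and 25.3 in DEF/CT liver, both above the floor. The log2 difference of 1.11 was 1.93 times the probe set SD at this signal and ranked 146 from the top among 11163 genes. With an offset of 32 added to each signal the difference was 0.60. The dimmer probe set had 13.7 in DEF/FOS and 1.21 in DEF/CT, both below the floor, so no fold is given. In both probe sets the DEF/FOS signal was the higher, but signals below the floor are no check on the brighter probe set. Between the floor and the 75th percentile of signal, 2.99% of genes were at least 2-fold higher.

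The near copy of this gene, Abcb1b, lies next to it among protein-coding genes, followed by Abcb4. Neither probe set of Abcb1b reached the floor, with 11.3 in DEF/FOS against 16.05 in DEF/CT for the brighter and 9.54 against 12.3 for the dimmer. The 2 genes are near-identical in places, and how far their probe sets share targets is not known from the files. Endothelial markers, given because P-glycoprotein is a vessel protein too, were above the floor in 12 of 12 cases, with none 1.5-fold higher and 1, Tie1, 1.64-fold lower. Their summed signal was 2276 in DEF/FOS liver and 2354 in DEF/CT liver.

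Abcc3 encodes MRP3, a basolateral exporter of glucuronides and bile salts that is also made by bile duct cells. Its signal was 349 in DEF/FOS liver and 221 in DEF/CT liver. The log2 difference of 0.68 was 3.03 times the probe set SD, the largest multiple among the members, and it ran from 0.61 to 0.73 over the 9 settings. Above the 75th percentile of signal, where this gene lies, 4.01% of genes were at least 1.5-fold higher. Abcc2 carries similar conjugates to the bile side. The ratio of the Abcc3 signal to that of Abcc2 was 0.49 in DEF/FOS liver and 0.31 in DEF/CT liver. This ratio was 1.59-fold higher in DEF/FOS liver, or 2.13 times the SD for a pair.

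Cholangiocyte markers were 10 named genes, of which 5 were above the floor, all 5 with positive differences. The share with positive differences was 49.9% over all genes above the floor. Tspan8 was higher by 1.64-fold, and its probe sets did not share a sign. Krt19 had a DEF/CT signal below the floor and was at least 1.36-fold higher. It passed the floor by its mean only through its DEF/FOS signal, so the count of 5 is not a result about these markers. Krt7, Cftr, Sctr, Cldn7 and Muc1 were below the floor by their mean. Of these, Cftr, Cldn7 and Muc1 had the lower signal in DEF/FOS liver, and Krt7 and Sctr the higher. The summed signal of the 10 was 247 in DEF/FOS liver and 191 in DEF/CT liver. Their part in the Abcc3 value was not tested.

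Abcc4 encodes MRP4, which carries bile salts with glutathione and cyclic nucleotides across the basolateral membrane. At 40.2 in DEF/FOS liver and 31.2 in DEF/CT liver it lay near the floor, and the log2 difference of 0.38 was 0.662 times the probe set SD. With an offset of 32 it was 0.20. Abcc6, a basolateral exporter tied to ATP release and the control of tissue calcification, had 353 in DEF/FOS and 443 in DEF/CT. Its log2 difference was -0.31, or 1.40 times the probe set SD, and it was negative in all 9 settings. Within the arrays Abcc3 and Abcc6 differed in their changes by 0.99 on the log2 scale, 3.13 times the SD for a pair. They are the highest and lowest of the 3 basolateral genes and were paired after their values had been seen. The 3 genes thus did not share a sign in these 2 arrays, and no replicate checks this.

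**Figure D3:**
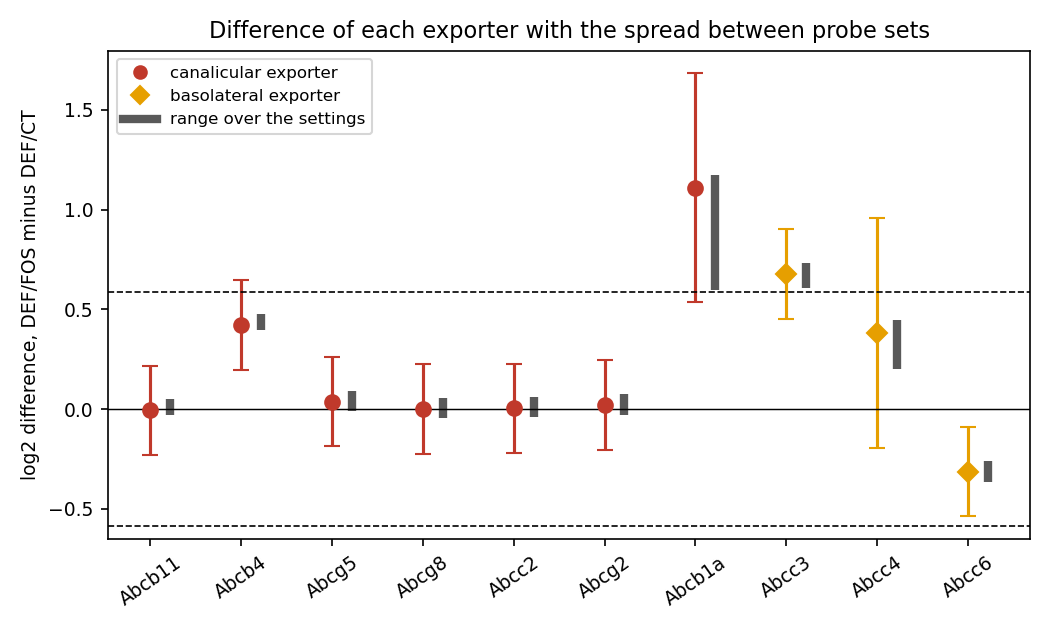
Centred log2 difference, DEF/FOS minus DEF/CT, of each exporter gene by its brightest probe set. Error bars are 1 SD over probe sets that share a gene, at that signal level, not a spread between animals. Grey bars give the range over the settings with a value, 8 for Abcb1a, Abcc4 and Abcc2 and 9 for the other genes. Dashed lines mark 1.5-fold, and Abcb1a and Abcc3 lie above the upper line.

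Abcc3 and Abcc4 are known targets of NRF2, the regulator of the antioxidant response, and of the drug receptors CAR and PXR. The gene of NRF2, Nfe2l2, had signals of 935 in DEF/FOS and 634 in DEF/CT, a log2 difference of 0.58. Of the NRF2-responsive genes 13 passed the floor, of which 7 were 1.5-fold or more higher in DEF/FOS liver and none lower, with a median of 0.74, against 0.68 for Abcc3 and 0.38 for Abcc4. The leading genes were the glutathione transferases Gstm3, 5.02-fold, and Gsta2, 5.00-fold higher, and the carbonyl reductase Cbr3, at least 2.32-fold higher. The basic NRF2 motif TGACNNNGC was present in the windows of Abcb1a, Abcc2 and both starts of Abcc4, that is in 4 of 12 member windows, where 12.4% of all windows hold it. Abcc3 and Abcc6 had no window. The lists were chosen with earlier results of these data known. A part of NRF2, CAR or PXR in the values of Abcc3 and Abcc4 was not tested.

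The CAR gene Nr1i3 had signals of 393 in DEF/FOS and 317 in DEF/CT, and the PXR gene Nr1i2 95.7 and 113, with a second probe set at 67.0 and 64.6. Of the genes responsive to these receptors 7 passed the floor, with 3 of them 1.5-fold or more higher and none lower, with a median of 0.27. The 3 genes were the stress gene Gadd45b, 3.06-fold, Gstm1, which is also in the NRF2 list, 1.85-fold, and the cytochrome P450 gene Cyp2c55, 1.80-fold higher. Over all 13 genes of nuclear receptors and partner regulators above the floor the median was -0.08, and the 1 gene past 1.5-fold was the dioxin receptor gene Ahr, 1.85-fold higher by its brightest probe set and of the opposite sign by another.

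PPARα, the fatty acid receptor whose drug ligands are known to raise Abcb4 in mice, had a gene signal (Ppara) of 963 in DEF/FOS and 1300 in DEF/CT. Its 11 listed target genes all passed the floor and 8 were 1.5-fold or more higher, with a median of 1.27, against 0.42 for Abcb4. The leading genes were the omega-hydroxylase Cyp4a14, 14.0-fold, and the thioesterases Acot3, 3.41-fold, and Acot1, 3.34-fold higher. A part of PPARα in the Abcb4 value was not tested. The PPAR direct repeat, AGGTCA repeated after 1 base, and a looser form with AGGNCA in its place were found in none of the 12 member windows and in 0.0396% and 0.381% of all windows.

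**Figure D4:**
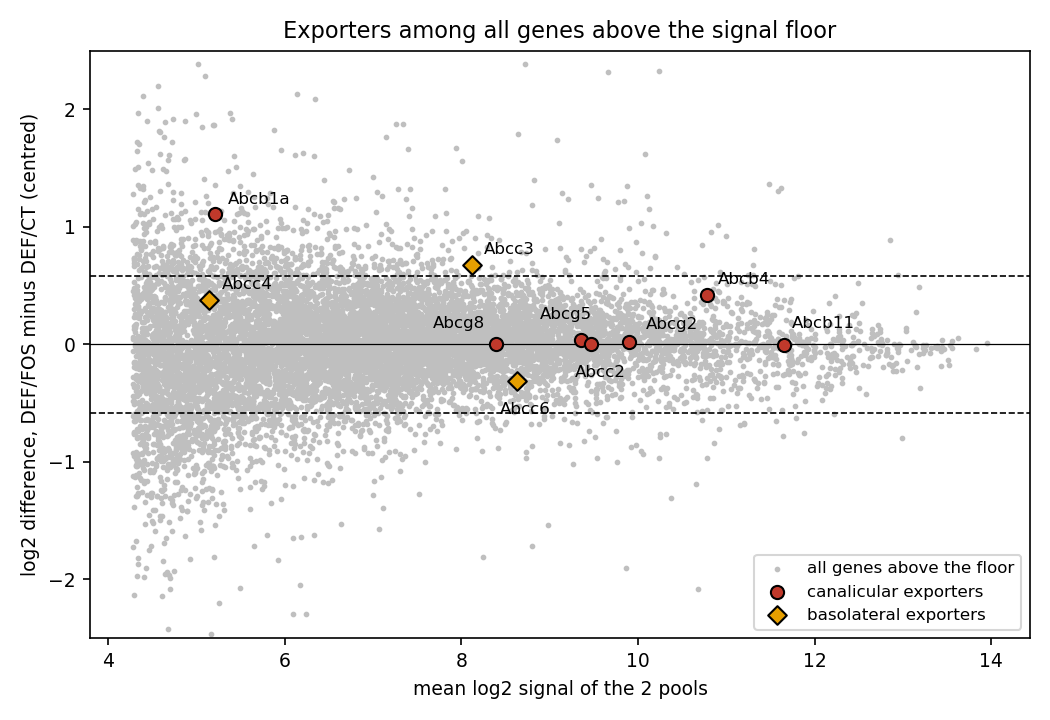
Centred log2 difference, DEF/FOS minus DEF/CT, against the mean log2 signal of the pools for all genes above the floor (grey) and the exporters (coloured). Dashed lines mark 1.5-fold, and 24 genes beyond 2.5 on the vertical axis are not drawn; the grey cloud is wider at low signal, where Abcb1a and Abcc4 lie.

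The rest of the ABC superfamily went both ways. Of 36 other ABC genes with a probe set, 28 were above the floor, with 4 at least 1.5-fold higher and 3 lower in DEF/FOS liver, or 2 lower with the floor in place of signals below it, and a median of 0.09. The peroxisomal importer of very long chain fatty acids Abcd2, which also stands in the PPARα list, was 2.35-fold higher at 155 in DEF/FOS against 66.5 in DEF/CT. Abcg4, a sterol exporter best known from brain, was 1.77-fold lower. Abcc8, the sulfonylurea receptor, had 13.5 in DEF/FOS, below the floor, against 29.4 in DEF/CT, and with the floor in place of the DEF/FOS signal it falls just short of 1.5-fold lower.

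Exporters reach and stay in the canalicular membrane with the help of scaffold and trafficking proteins. All 12 named genes of this list were above the floor, none was 1.5-fold apart, and the median was -0.03. The lowest was Rdx, radixin, the linker that holds Abcc2 in the canalicular membrane of mouse liver, with 1321 in DEF/FOS liver and 1994 in DEF/CT liver, a log2 difference of -0.58. Its other 2 probe sets had differences of -0.34 and 0.10, so they disagreed in sign. Rdx is named outside the naming rule, after its values were seen, since it fell just short of 1.5-fold. Protein in the membrane was not measured.

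**Figure D5:**
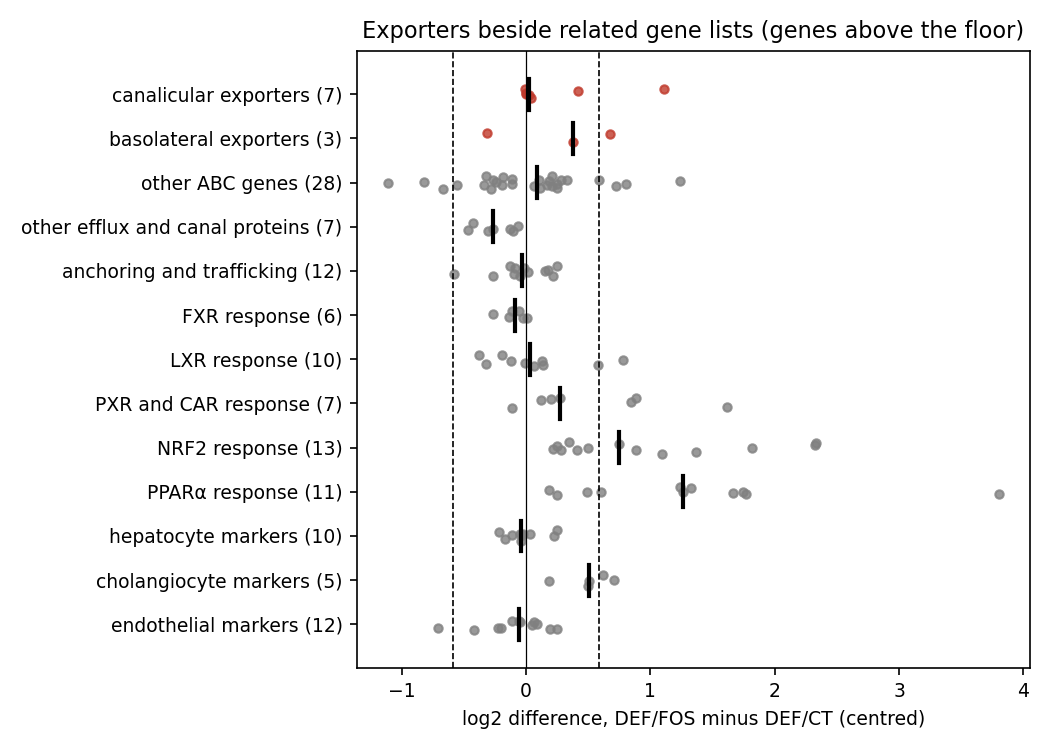
Centred log2 difference, DEF/FOS minus DEF/CT, of each gene above the floor in the exporter groups (red) and in related lists (grey), with the number of genes in brackets, a black bar at the median and dashed lines at 1.5-fold. Canalicular exporters cluster at 0, with Abcb4 and Abcb1a to the right, while the NRF2 and PPARα lists lie mostly right of 0.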

How the data were processed

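The deposited table holds MAS5 signal intensities on a linear scale, computed by the authors with GCOS and MAS5, per the submitters' processing notes, which give no version. Per the labels' protocols, RNA was pooled within each group. The table has no detection calls or background values, and the number of arrays, 1 per group, limits the precision.

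Differences were computed with Python 3.11.15 and pandas 2.3.3. Of 45101 probe sets, 64 are controls and 34945 others had 1 gene symbol in the platform annotation; 932 had several and were not named. Entrez identifiers matched for 34741 in the RefSeq table of GRCm38.p6, and 0 symbols changed. The log2 difference was centred by its median over probe sets above the floor, -0.01. The floor, 19.4, is the median signal of probe sets that are not controls. A gene's brightest probe set, by mean log2 signal, stood for it. A fold with 1 pool below the floor is a bound, computed against the floor. Of 227 entries in 18 lists, 18 had no probe set of their own.

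The rule named all members, up to 3 genes per other list if at least 1.5-fold apart, Abcb1b and 6 receptor genes. Values given beside these are outside it. Members and lists were chosen with earlier results of these data known. The procedure was tested on simulated data with less noise than the probe set spread and planted changes of at least 2-fold. That test does not cover smaller differences or the spread at low signal. RefSeq promoter windows matched 8 of 10 members. Alternatives covered normalization, centring, offset, floor and choice of probe set.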

Additional observations from a re-analysis of the deposited data

How the results depend on the processing

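The count of members at least 1.5-fold higher was 2 in the main setting and 1 with the floor at the 75th percentile of signal, because Abcb1a and Abcc4 then drop out of the 10 members. It was 2 in the other 7 alternatives, and the count 1.5-fold lower was 0 in all 9 settings. The members' median ran from -0.01 to 0.08 over the settings, so its sign is not fixed, and from 0.02 to 0.04 when each member was left out in turn. All 77 single-gene values recomputed stayed within 1 probe set SD of the main value, a wide mark at low signal. For Abcb1a this SD was 0.57, so the fall from 1.11 to 0.60 with an offset of 32 lay within it. Setting low signals to the floor, or taking the median over probe sets, could not move any member. Each member has 1 probe set above the floor, and both pools lie above the floor there. Abcb1a, Abcb4, Abcc3, Abcc4 and Abcc6 kept 1 sign in each setting that gave them a value. Abcc2 has no value when probe sets open to several transcripts are left out. Across the whole array, 754 genes were 1.5-fold or more higher and 873 lower, against 284 and 288 with an offset of 32, 244 and 212 with the floor at the 75th percentile, and 2856 and 3546 with no floor. No paired analysis was possible because each group has 1 array and the labels give no replicate numbers. Low signal limits the values of Abcb1a and Abcc4 most.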
